A study of Homo sapiens with 6 samples.

Results

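Long stretches of chromatin bound by RPB1, the largest subunit of RNA polymerase II, were described in HepG2 cells, a line derived from a human liver tumor. They were chosen by their measured length: every region of the SHP-1 WT RPB1 list that spans at least 3000 bp from its first to its last base was taken, and 1346 of 46045 regions (2.92%) met this rule. Together they covered 6.69 Mb, which was 17.7% of all bases in the WT RPB1 list. The 4 region lists of the series held 271336 regions in all. RPB1 and RPB1 phosphorylated on Ser2 of its C-terminal repeats (pSer2-RPB1) were mapped by ChIP-seq, with 1 library per antibody in untreated SHP-1 WT cells, which carry a CRISPR control, and in untreated SHP-1 KO cells, in which the gene of the tyrosine phosphatase SHP-1 was disrupted by CRISPR. The study's methods describe cell lines selected as single cell clones, and which clone gave each library is not given in the sources used here. Each list was called against the input chromatin of the same cells. With 1 library per antibody and genotype there was no replicate check, so differences between WT and KO libraries compare those libraries and carry no p-value. As a check on the label, all 10 hepatocyte markers had at least 1 WT RPB1 region assigned to them by the authors, and 7 had a long one. ALB, AFP, APOB, TTR, SERPINA1 and TF were among these 7. APOA1 and HNF4A, also hepatocyte markers, overlapped long regions that were assigned to other genes. By contrast, a WT RPB1 region was assigned to 3 of 5 leukocyte, 1 of 5 fibroblast and 1 of 4 endothelial markers. PTPRC, CD3E, COL1A1, DCN, VWF, CDH5 and KDR were among those without one, and LYZ, of the leukocyte list, was the 1 such marker with a long region.

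RNA polymerase II is loaded at gene starts, where much of it halts shortly after initiation. It is then released into the gene, where Ser2 of the repeats is increasingly phosphorylated by elongation kinases, so that the pSer2 form is best known from gene bodies and from the stretch past the polyadenylation site, where polymerase slows before it leaves the DNA. At many genes the polymerase signal is a narrow peak at the start. A region that runs on for several kb means that polymerase was detected without a break over that distance, which is typical of short, very active genes, and in liver cells of the genes for secreted plasma proteins.

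Part of what distinguishes gene starts is the core promoter sequence. The TATA box, bound by the TATA-binding protein a few helical turns upstream of the start, is common in tissue-restricted and inducible genes and rare in promoters rich in CpG. Windows of 30 bases, from 40 to 11 bases upstream of the RefSeq start on the gene strand, were searched for TATAAA. They are shown for some of the longest and strongest long regions (BPIFB2, P4HB, CEBPA and MKNK2) and for genes of the liver and translation lists below, chosen because they hold the motif, with the motif in capitals and the rest in lower case, 5′ to 3′ on the gene strand (RefSeq promoters, hg38 coordinates).
BPIFB2, chr20:33007664-33007693, forward strand: ttgggagcctTATAAAgtagcctctgcatc
P4HB, chr17:81860546-81860575, reverse strand: ggacccaggattTATAAAggcgaggccggg
CEBPA, chr19:33302545-33302574, reverse strand: gcctgccgggTATAAAagctgggccggcgc
MKNK2, chr19:2051255-2051284, reverse strand: aggtccgggccTATAAAggtggcggcggcg
RBP4, chr10:93601246-93601275, reverse strand: ccccggcgcTATAAAgcagcggggcggccg
AFP, chr4:73436181-73436210, forward strand: cctgaaaagagTATAAAagaatttcagcat
EEF2, chr19:3985474-3985503, reverse strand: ggcgtccgccTATAAAaagctgagtgttga

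Of 1342 RefSeq promoters whose start lay inside a long region, 57 (4.25%, 95% Wilson interval 3.29 to 5.46) held TATAAA in this window. The share was 0.989% (130 of 13138, interval 0.834 to 1.17) for promoters that started in a shorter WT RPB1 region and 2.34% (819 of 34961) over all promoters of the table. Promoters in long regions that held a whole protein-coding gene had the motif in 30 of 300 cases (10.0%, interval 7.09 to 13.9), and promoters in long regions that held a start only in 20 of 841 (2.38%). On the opposite strand of the same window, the motif occurred in 0.671% of promoters in long regions, 0.312% in shorter regions and 0.787% overall. Intervals here and below cover counting error only, several promoters can share a region, and a match describes the letters and not a bound factor. The 57 promoters included those of SELENOP, MALAT1, CFB, CALR, CEBPB, GDF15, FABP1, APOC2 and FOXA3. Histone genes were also among them, such as H1-4, H1-10, H2AX, H2AC6, H2AC17, H2BC3, H2BC5 and H2BC21. Some windows were counted more than once, shifted by a few bases at H2BC5 and ATF4, or identical for PTP4A1 and LOC128125822. The starts of ALB, JUND, ACTG1, KLF6 and SLC16A3, which also lie in the longest or strongest regions, did not have these letters in the window. APOB, FASN, C3 and NEAT1 had no entry under these names among the promoters searched.

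The base composition of the regions varied with where they lay. The median GC content was 58.3% in long regions (quartiles 52.9 to 62.6) and 60.2% in WT RPB1 regions of 1000 to under 3000 bp. The ratio of observed to expected CpG, which is high in CpG islands, had a median of 0.464 in long regions and 0.689 in the shorter ones. Among long regions it was 0.629 where only a gene start was held and 0.307 where only a gene end was held.

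The longest region spanned 44449 bp and took in the whole of APOB, the gene of the main structural protein of low density lipoprotein (chromosome 2, 21001228 to 21045676). It was followed by BPIFB2 with 23147 bp, the nuclear RNA NEAT1 with 21938 bp, FASN, the gene of fatty acid synthase, with 21311 bp, ALB, the gene of serum albumin, with 19524 bp, and complement C3 with 19461 bp. The other 4 of the 10 longest were assigned by the authors to ARHGDIA (17304 bp), MAMDC4 (17042 bp), FGL1 (16926 bp) and MEGF6 (16435 bp). The ARHGDIA region also held the start of P4HB, a protein disulfide isomerase, and the FGL1 region lay outside the FGL1 canonical transcript and held no protein-coding gene. Lengths were skewed, with a median of 4018 bp and quartiles of 3382 and 5448 bp, and 70 regions reached 10000 bp. Just inside the length limit were NEK6 with 3000 bp, ZNF696 with 3001 bp and FOXO1 with 3002 bp, and just outside it were ARID3A with 2998 bp, ZNF487 with 2997 bp and GRHL1 with 2994 bp. The fold enrichments of these 6 ranged from 13.4 at ARID3A to 59.6 at ZNF696.

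**Figure D1:**
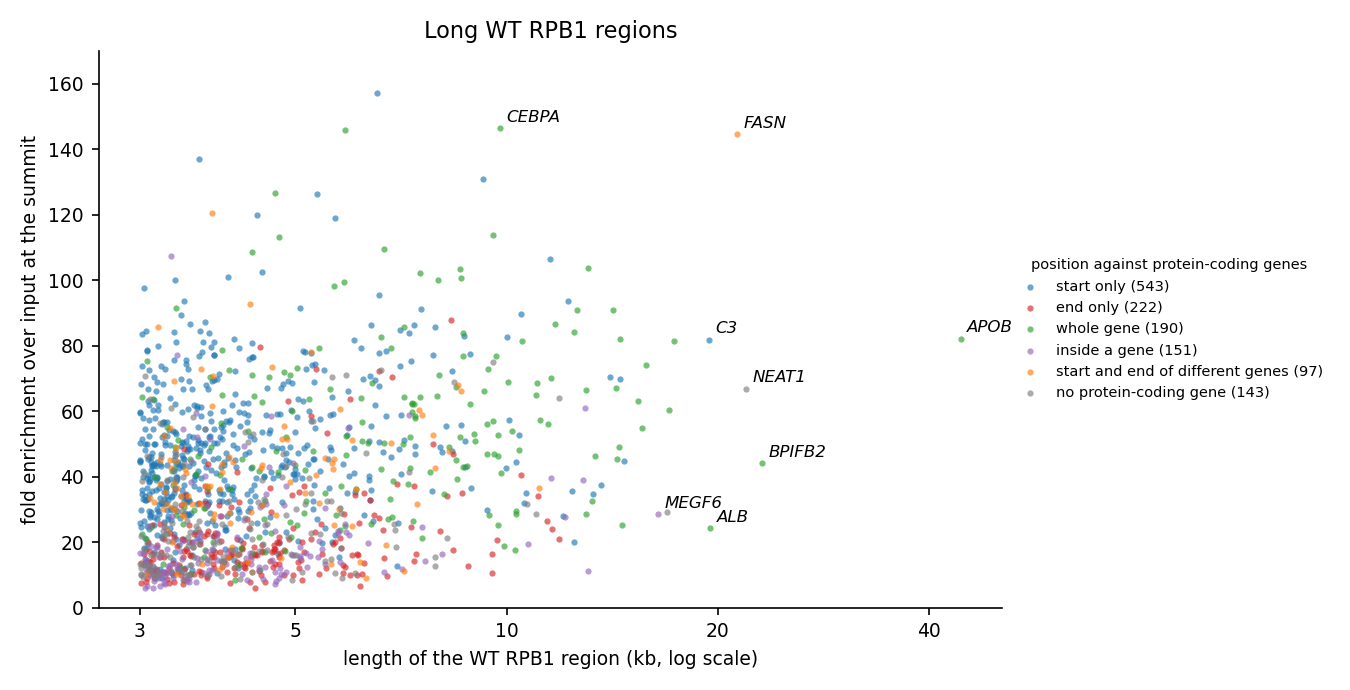
Length of each of the 1346 long WT RPB1 regions (x axis, kb, log scale) against the fold enrichment over input at its summit (y axis), colored by the position of the region against protein-coding genes. Most of the highest fold enrichments belong to regions with a start only or a whole gene, regions with an end only lie mostly low (median 16.9), and APOB stands alone at 44449 bp.

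The signal value of the authors' lists is the fold enrichment of the summit over input. It had a median of 34.5 over long regions, with a range of 5.94 to 157, and of 5.51 over all WT RPB1 regions. The median was 32.0 for WT RPB1 regions of 2000 to under 3000 bp and 24.0 for those of 1000 to under 2000 bp. Length and enrichment come from the same library, so this is a description and not a test. The highest value, 157, was at a region assigned to the microRNA gene MIR3191 that held the start of BBC3, which encodes a pro-apoptotic BH3 protein. Next came CEBPA, the gene of a transcription factor of hepatocyte and fat cell differentiation, with 146, a region assigned to MIR3188 that covered JUND with 146, FASN with 144 and MKNK2, a MAP kinase-activated kinase gene, with 137. The rest of the 10 strongest were SLC16A3 with 131, C11orf98 with 126, the gamma-actin gene ACTG1 with 126, TUBB3 with 120 and KLF6 with 120. FASN was the only gene among both the 10 longest and the 10 strongest. In all, 53 long regions were assigned to microRNA genes, which lie inside or beside longer genes, and reads cannot tell the microRNA from its host.

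By the authors' annotation, 1078 long regions (80.1%, interval 77.9 to 82.1) were promoter regions, compared with 77.5% of regions of 1000 to under 3000 bp and 44.6% of all WT RPB1 regions. A further 122 lay in a 3′ UTR, 50 were distal intergenic, 46 exonic and 38 intronic, 7 lay in a 5′ UTR and 5 just downstream of a gene. The annotation names 1 feature per region, and a long region usually reaches past it. Against GENCODE release 44 canonical protein-coding transcripts, 543 long regions held 1 or more gene starts and no end, 222 held an end and no start, 190 held at least 1 whole gene, 97 held the start of 1 gene and the end of another, 151 lay inside a gene and 143 met no protein-coding gene. In 815 (60.5%, interval 57.9 to 63.1) the region covered a gene end or ran at least 2000 bp into a gene from its start, against 7.24% of regions of 1000 to under 3000 bp, for which a run of that length is mostly out of reach. A canonical protein-coding start lay in 830 long regions (61.7%), against 63.7% of regions of 1000 to under 3000 bp. Of the 1078 promoter regions, 250 held no such start. Of the 1203 long regions that met a protein-coding gene, 433 were assigned by the authors to a gene other than the one with most bases inside. Of the 1346 long regions, 473 (35.1%) lay within 10 kb of another, and 133 of 1185 assigned genes had 2 or more, with at most 4, at A2M, ASPSCR1, BCOR and LOC100129484.

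Regions that held only a start extended a median of 1660 bp upstream and 2208 bp downstream of it, and 338 of 543 reached farther into the gene than upstream. Regions that held only an end extended 2216 bp before it and 1998 bp past it. The summits differed in height by position. Median fold enrichment was 45.1 for regions with a start only, 49.2 for regions with a whole gene, 16.9 for regions with an end only and 15.1 inside genes.

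A long region touched 1481 of 19958 protein-coding genes (7.42%), or 11.6% of the 12738 genes with any WT RPB1 region. In 425 of them at least 50% of the gene lay inside long regions, and 217 lay inside entirely. These 425 genes were short, with a median length of 3820 bp, whereas the genes with any WT RPB1 region had a median length of 26854 bp. The limit of 50% itself favors short genes, since most long regions span only a few kb. All 1481 touched genes had a median length of 11390 bp. The lists of protein-coding genes below can be read beside the share of 7.42%. They were chosen with results of these data known, and their counts are descriptions.

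Genes of secreted liver proteins were touched in 24 of 35 cases, and 17 of them had at least 50% of their length inside. ALB, AHSG, SERPINA1, which encodes alpha-1-antitrypsin, RBP4, which encodes the plasma carrier of retinol, FGA, APOA1, APOA2, APOC1, APOE and APOB lay inside long regions over 100% of their length, and AFP, the gene of the fetal albumin-like protein, over 99.5%. FN1, which spans 75204 bp, had 17.5% of its length inside 1 long region of 14529 bp at its start. Among the lineage factors of the liver, 15 of 21 were touched. XBP1, CEBPA, CEBPB, CEBPD and NR0B2, all short genes, were wholly inside. HNF4A, a nuclear receptor that maintains hepatocyte identity, had 4 long regions that made up 34.7% of its 77147 bp, and PROX1 had 5.49%. Immediate early and stress genes were touched in 21 of 31 cases. MYC, DDIT3, GDF15, DDIT4, JUND, JUNB, IER2, IER3 and ZFP36 were wholly inside long regions.

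The translation list, which was every protein-coding symbol with an RPL or RPS prefix and some translation factors, was touched in 40 of 113 cases. EEF2, EEF1A1, RPL28, RPL3 and RPLP0 were among them, and 2 of the 40, RPS6KA3 and RPS19BP1, carry the prefix but are not ribosomal proteins. Chaperone genes were touched in 8 of 20 cases, with P4HB (90.1% inside) and HSPA5 (99.2%), both of the endoplasmic reticulum, and CALR (100%) the most complete. Glycolysis genes were touched in 5 of 14 cases, with GAPDH wholly inside, lipid and cholesterol genes in 7 of 16, with FASN at 99.7% and SCD at 31.6%, and cytoskeleton genes in 6 of 19, with KRT18 wholly inside. Of the metallothionein and iron list 3 of 13 genes were touched, and the ferritin genes FTH1 and FTL were wholly inside. Of the oncofetal list 4 of 7 were touched, among them IGF2 with 99.2% inside. RNA binding and splicing genes were touched in 11 of 47 cases, and HNRNPA1 was the 1 gene of that list with at least 50% inside. Long noncoding RNA genes were touched in 125 of 3939 cases (3.17%), microRNA genes in 54 of 1850 (2.92%) and histone and small RNA genes in 76 of 3418 (2.22%). Most genes of these lists had no WT RPB1 region, and of those with one, 11.2%, 23.1% and 33.5% were touched. Such genes often lie in or beside longer genes, and the name patterns also caught pseudogenes and antisense genes. None of PCK1, PTPN6, G6PC1, STAT5A, STAT5B, POLR2A and POLR2J was touched by a long region.

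The KO RPB1 list covered most of the same ground. A median of 91.3% of the bases of a long region was also in KO RPB1 regions, with quartiles of 82.9% and 97.2%. At least 50% of the length was covered in 1312 of 1346 long regions (97.5%), against 51.2% of all WT RPB1 regions. The median was 0 for WT regions under 1000 bp, 85.4% for 1000 to under 2000 bp and 88.1% for 2000 to under 3000 bp. The KO list was the smaller one, with 41605 regions over 31.8 Mb against 37.8 Mb in WT. A single KO RPB1 region was met by 484 long regions (36.0%), 2 or more, up to 12, by 861 (64.0%) and none by 1. The shares over all WT RPB1 regions were 51.2%, 10.7% and 38.1%. Each long region is 1 piece in WT by the rule, and of the 995 KO RPB1 regions of at least 3000 bp, 423 (42.5%) met 2 or more WT regions. Of the long WT regions, 779 (57.9%) met a KO region of at least 3000 bp. Of the 70 regions of 10000 bp or more, 59 were covered to at least 90%. A cover of 100% was seen in 123 long regions (9.14%), against 9.88% of WT RPB1 regions of any length. The longest were at FN1, IRF2BP2, ASPSCR1, HERPUD1 and PRPSAP1.

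**Figure D2:**
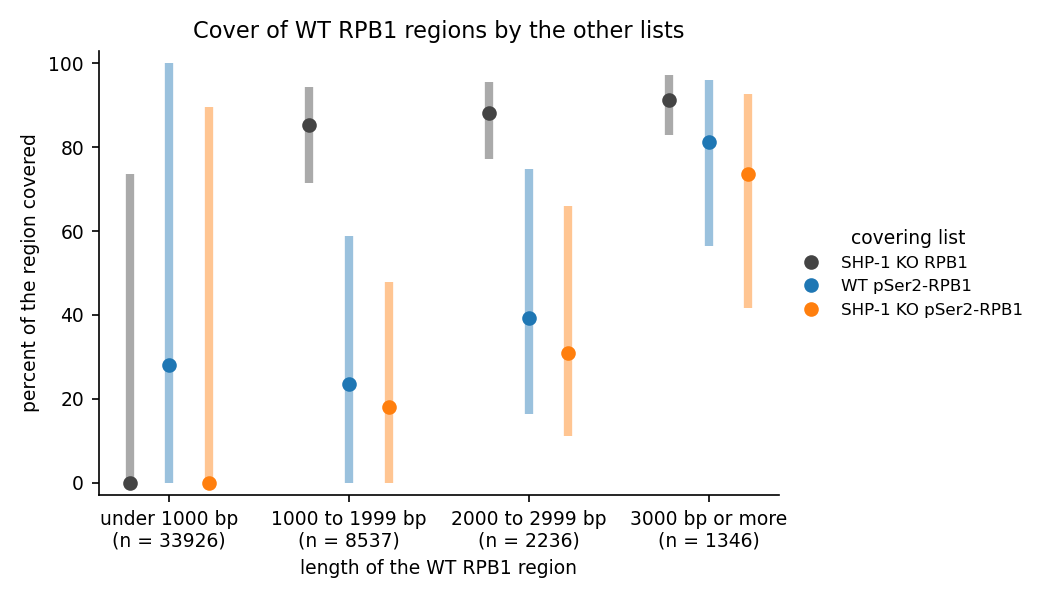
Percent of each WT RPB1 region covered by KO RPB1, WT pSer2-RPB1 and KO pSer2-RPB1 regions (y axis) in 4 length classes (x axis). Dots are medians and bars run from the first to the third quartile. pSer2-RPB1 cover is 81.2% (WT) and 73.7% (KO) in the longest class against 39.3% and 30.9% in the class just below it, and KO RPB1 cover is high in the 3 upper classes.

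The highest fold enrichment of any KO RPB1 region that met a long region had a median of 26.2, compared with 34.5 for the WT region itself, and it was lower than the WT value in 1061 of 1345 cases (78.9%). Choosing by length in the KO list gave the same direction, with a median of 27.4 for the KO regions and 38.8 for the strongest WT region they met, and the KO value was lower in 742 of 995 cases (74.6%). In each direction the strongest region met was taken from the other list, which raises the value of that list where several were met. Over the whole lists the median fold enrichment was 5.51 in WT and 5.62 in KO. The share of lower KO values over all WT RPB1 regions was not computed. Fold enrichments were calculated within each library against its own input and are not normalized between libraries. Named values went both ways. CEBPA had 146 in WT and 133 in KO, JUND 146 and 105, FASN 144 and 88.7, C3 81.8 and 36.7 and ALB 24.4 and 24.1, whereas NEAT1 had 66.9 in WT and 89.2 in KO, BPIFB2 44.2 and 65.2 and IGF2 49.1 and 66.3.

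Regions that KO RPB1 did not cover to at least 50% numbered 34. Their median fold enrichment was 15.04, below that of long regions as a whole. WT pSer2-RPB1 covered 24 of them to at least 50% and KO pSer2-RPB1 covered 7. Over all long regions the shares were 81.4% and 69.6%. At MEGF6, which encodes a protein with many epidermal growth factor repeats, the WT list held a region of 16435 bp with a fold enrichment of 28.5 (chromosome 1, 3523991 to 3540425) and the KO RPB1 list held no region anywhere in the 123558 bp gene. The WT pSer2-RPB1 list covered the same region completely, within 1 region of 36825 bp and a fold enrichment of 33.5, and the KO pSer2-RPB1 list again held none in the gene. The next least covered were NOL4L with 4.58%, CFAP74 with 5.76% and a region assigned to the lipoxygenase gene ALOX12B with 7.88%. The region assigned to ALOX12B met no canonical protein-coding transcript. LOC200772 followed with 8.52%, ACAP3 with 8.74% and ARHGEF40 with 21.6%. A distal region assigned to FTH1 had 22.1%, PLK5 22.9% and a distal region assigned to SNX5 28.4%. At ITIH3, which encodes a heavy chain of a plasma protease inhibitor and is the least covered of the touched secretory genes, WT RPB1 regions covered 58.3% of the gene and KO RPB1 regions 4.66%. For pSer2-RPB1 the values at ITIH3 were 67.6% in WT and 0% in KO. TTR, which encodes the thyroxine carrier transthyretin, was covered over 88.5% by WT and 35.9% by KO RPB1 regions, and over 100% and 48.8% by the pSer2-RPB1 lists.

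Of these 34, 8 lay in the first 5 Mb of chromosome 1, which held 33 long regions. There the median KO RPB1 cover was 70.2%, against 91.5% elsewhere. The same 33 regions had a median WT pSer2-RPB1 cover of 80.04% and a median KO pSer2-RPB1 cover of 41.3%. Of them, 30 had less pSer2-RPB1 cover in KO, against 67.8% of all long regions. The KO fold enrichment was below the WT value in 31 of the 32 that met a KO region, with medians of 24.1 in WT and 15.2 in KO. Among the other 1313 long regions it was lower in 78.4%. SCNN1D, ACAP3, CFAP74 and MEGF6 lie in this stretch. The input libraries of the genotypes were not compared over this stretch, so the values give what the lists hold there and no more. This stretch was singled out after its values were seen, and its part in the other results is given by the values without it: the count covered to at least 50% was then 1287 of 1313 and the median KO RPB1 cover 91.5%.

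**Figure D3:**
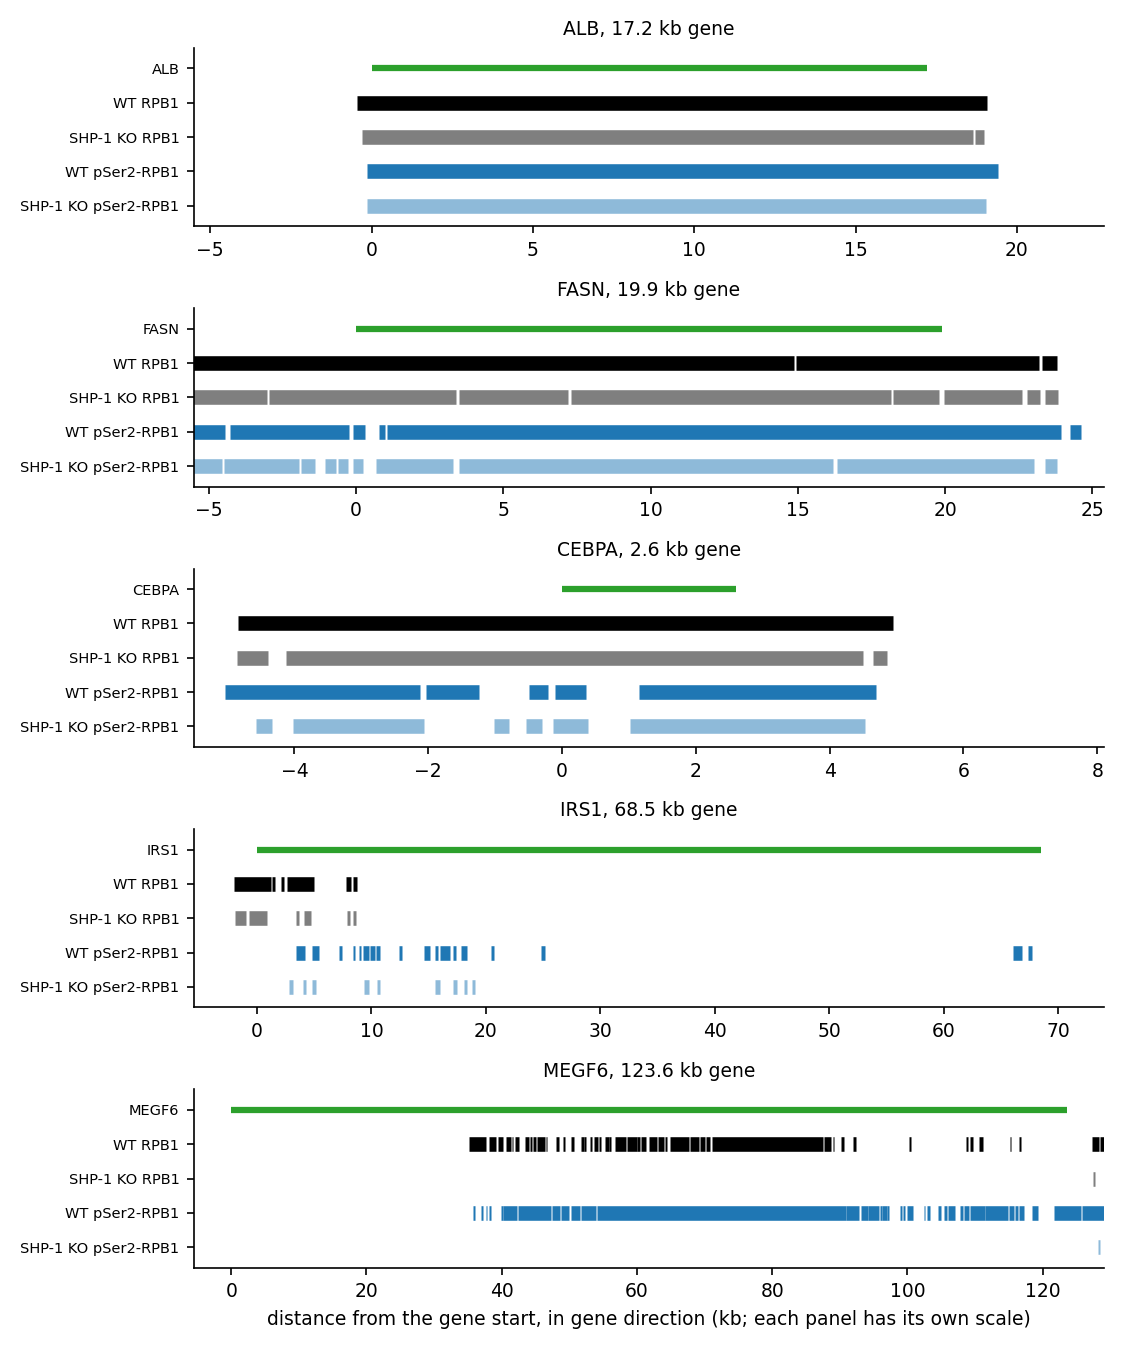
Regions of the 4 lists (rows) at ALB, FASN, CEBPA, IRS1 and MEGF6, drawn as bars by distance from the gene start in gene direction (x axis, kb, a separate scale in each panel), with the gene as a green line on top. ALB is filled in all 4 lists, and FASN is split into more pieces in KO. CEBPA has a gap in both pSer2-RPB1 lists just after its start. The long region at the IRS1 start has no pSer2-RPB1 region in either list. The MEGF6 gene is empty in both KO lists, each of which has 1 region past the gene end.

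A median of 81.2% of a long region was in WT pSer2-RPB1 regions (quartiles 56.5% and 96.0%), compared with 39.3% for WT RPB1 regions of 2000 to under 3000 bp, 23.5% for 1000 to under 2000 bp and 28.1% for under 1000 bp. At least 50% was covered in 1095 long regions (81.4%), against 42.7% of all WT RPB1 regions, and 193 (14.3%) were covered entirely, against 24.7% of all WT RPB1 regions, most of which are short. For KO pSer2-RPB1 the median was 73.7% (quartiles 41.7% and 92.7%) and 937 long regions (69.6%) reached 50%, against 34.1% of all WT RPB1 regions. The pSer2-RPB1 libraries were not used to choose the regions, but longer regions hold other parts of genes. Within the same kind of position the values were 60.5% for long regions with a start only and 18.4% for those of 1000 to under 3000 bp, 87.7% and 56.7% for whole genes, and 95.6% and 80.3% inside genes. Where only a gene end was held, the order did not follow length, with 99.1% in long regions and 100% in the shorter ones. Among long regions the cover rose with length, from 68.5% for 3000 to under 4000 bp to 94.5% for 10000 bp or more.

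Enrichment of RPB1 and cover by pSer2-RPB1 did not move together. The 337 long regions with the lowest fold enrichment, 5.94 to 18.4, had a median WT pSer2-RPB1 cover of 97.3%. The median was 78.9% for the next 336 (18.4 to 34.5) and 66.2% for the 336 after them (34.5 to 51.5). The 337 with the highest fold enrichment, 51.6 to 157, had 75.8%. Both measures also differed by position. Median fold enrichment and cover were 16.9 and 99.1% with an end only, and 45.1 and 60.5% with a start only. With a whole gene they were 49.2 and 87.7%. The part of position in the contrast by enrichment was not tested. At MKNK2, with a fold enrichment of 137, WT pSer2-RPB1 covered 21.98% of the region and KO pSer2-RPB1 24.7%, and at ACTG1 the values were 49.0% and 51.5%. At APOH, the gene of a phospholipid-binding plasma protein, a region of 10733 bp with a fold enrichment of 19.4 was covered by 100% in both, and the same was true of a region of 11080 bp over the end of AFP. KCNQ1OT1, an antisense RNA of an imprinted cluster, had a region of 13045 bp with a fold enrichment of 11.2 and was also covered by 100% in both. The other regions among the 10 longest covered entirely by WT pSer2-RPB1 were MEGF6, the second FASN region over the end of that gene, MIR6787, SAP25, MLXIPL, a glucose-responsive transcription factor gene, PCK2 and LBX2-AS1, of which all but MEGF6 had 84.0% to 99.3% in KO.

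The profile around gene starts showed where the pSer2-RPB1 lists left gaps. At the start itself, all 543 long regions with a start only held WT RPB1, by the way they were chosen, and KO RPB1 was listed at 99.6%. WT pSer2-RPB1 was listed at 72.7% of these starts and KO pSer2-RPB1 at 65.9%. At 500 bp into the gene the pSer2-RPB1 shares were 38.9% in WT and 35.2% in KO, while KO RPB1 was still at 94.7%, and at 1500 bp they were 56.4% and 46.0%. At 6000 bp, past the end of most of these regions, WT pSer2-RPB1 was listed at 54.0% and WT RPB1 at 35.4%. Around the 222 ends of regions with an end only, the lists ran close together. At the end itself WT pSer2-RPB1 was listed at 97.7%, KO pSer2-RPB1 at 95.045% and KO RPB1 at 87.8%, and 3000 bp past the end the WT pSer2-RPB1 share was 56.8% and the KO share 49.1%. CEBPA shows the gap in 1 gene. Its region of 9785 bp was 1 region in WT RPB1, but WT pSer2-RPB1 was listed in separate pieces from −112 to 355 bp relative to the start and again from 1155 to 4695 bp, and KO pSer2-RPB1 from −128 to 387 bp and from 1009 to 4536 bp.

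**Figure D4:**
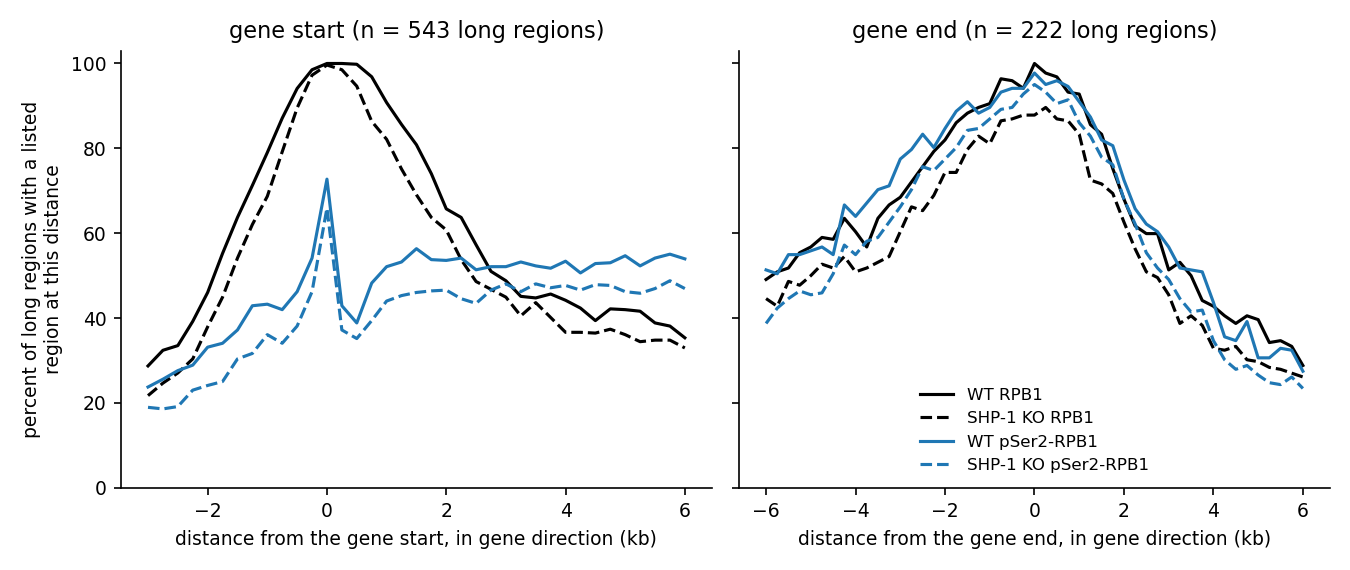
Percent of long WT RPB1 regions with a listed region at each distance (y axis) from the gene start (left, 543 regions with a start only) and from the gene end (right, 222 regions with an end only), on an x axis in kb in gene direction. Black lines are RPB1 and blue lines pSer2-RPB1, solid for WT and dashed for KO. pSer2-RPB1 peaks at the start (72.7% in WT), drops to 38.9% at 500 bp and comes back to 56.4% at 1500 bp, whereas all 4 lists lie close together at gene ends.

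There were 18 long regions (1.34%) without 1 base of WT pSer2-RPB1 and 55 (4.09%) without KO pSer2-RPB1, against 41.1% and 50.1% of all WT RPB1 regions. For WT RPB1 regions of 1000 to under 3000 bp the shares were 29.4% and 36.5%. Of the 2236 regions of 2000 to under 3000 bp, 258 lacked WT and 418 lacked KO pSer2-RPB1. A longer region has more room to meet 1 base, so these shares are not comparable between lengths. Of the 18, 15 held a gene start only and 13 lacked KO pSer2-RPB1 too. Their median length was 3209 bp and their median fold enrichment 24.6. Among them were IRS1, the gene of an adaptor of the insulin receptor, IGF2BP2, which encodes an RNA-binding protein, the matrix metalloproteinase gene MMP15, the receptor phosphatase gene PTPRU, FGFRL1, LPCAT1, TSHZ1, COQ8B and NOL4L. RPB1 itself was not low at all of them. IGF2BP2 had a fold enrichment of 48.6, with 96.7% of the region in KO RPB1 regions, and IRS1 had 21.96, with 81.4%. KO pSer2-RPB1 was listed at LPCAT1 over 8.21% and at COQ8B over 20.6%.

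Between the genotypes, pSer2-RPB1 cover of a long region differed by a median of −4.25 percentage points (KO minus WT), with 912 regions lower in KO (67.8%), 303 higher (22.5%) and 131 equal. Over all WT RPB1 regions 32.7% were lower, 14.1% higher and 53.3% equal. For those of 1000 to under 3000 bp the shares were 45.2%, 23.6% and 31.3%. Regions without pSer2-RPB1 in either list count as equal, and equal values made up only 9.73% of long regions. The shares that were lower are therefore not directly comparable between these sets. The KO pSer2-RPB1 list was the smaller one over the whole genome, with 81012 regions over 54.6 Mb against 102674 over 67.6 Mb in WT, and the part of this in the difference was not tested. The size depended on the list that chose the regions. For the 995 KO RPB1 regions of at least 3000 bp, the median difference was −0.057 percentage points, with a median cover of 87.8% in WT and 85.3% in KO pSer2-RPB1 regions. The WT RPB1 list covered a median of 97.5% of those 995 regions, 986 of them to at least 50%, and 785 met a long WT region. The least covered by WT RPB1 were SNORA74A with 18.6%, NR5A2, a liver nuclear receptor gene, with 24.3%, and KLHDC7B with 25.4%.

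Differences of at least 25 percentage points were seen in 163 long regions that were lower in KO (12.1%) and 11 that were higher (0.817%). The shares were 16.7% and 4.92% over all WT RPB1 regions, and 11.4% and 2.92% for those of 1000 to under 3000 bp. After MEGF6 (100% in WT, 0% in KO), the largest drops were at LOC200772 (89.1% to 0%), a distal region assigned to SECTM1 (85.4% to 0%), PDGFB, a growth factor gene (78.4% to 0%), PLK5 (77.8% to 0%) and ARHGEF40 (94.1% to 19.8%). SCNN1D, ACAP3, LINC02139 and RHOT2 followed. All of these but PDGFB, LINC02139 and SCNN1D also had KO RPB1 cover below 50%, and PDGFB kept 62.9% with a fold enrichment of 54.8 in WT and 8.45 in KO. Of the 11 that were higher, 10 held a gene start only. The largest was POLR2L, which encodes a small subunit shared by the nuclear RNA polymerases, with 17.5% in WT and 54.2% in KO. The added KO pieces lay upstream of POLR2L, from −1977 to −1439 bp and from −2957 to −2263 bp relative to its start, where TSPAN4 has most of the bases of the region, and the POLR2L gene itself was covered over 83.6% in WT and 86.3% in KO. POLR2L was followed by IGF2, a fetal growth factor gene (58.4% and 91.3%), a distal region assigned to DNAJB12 (33.0% and 65.1%), ASGR2, a subunit gene of the hepatocyte asialoglycoprotein receptor (42.4% and 74.5%), and ODC1-DT (30.1% and 59.9%). LOC101927243, ADM, ASPSCR1, PACSIN3 and EIF4EBP1 completed the 10 largest. In all 10 the region itself was covered by KO RPB1 to at least 81.3%.

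**Figure D5:**
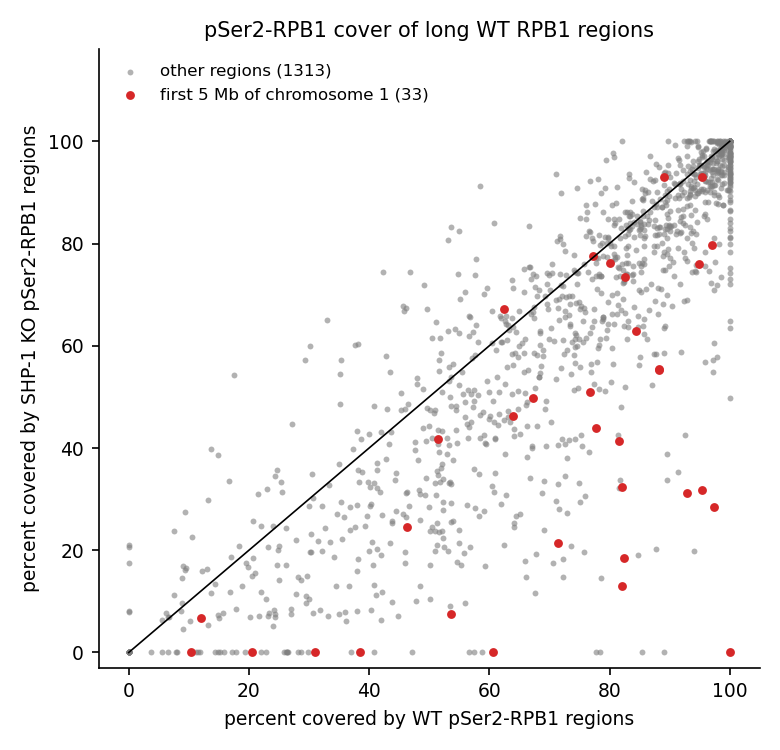
Percent of each long WT RPB1 region covered by WT pSer2-RPB1 regions (x axis) and by KO pSer2-RPB1 regions (y axis), with the line of equal cover. Red dots are the 33 regions in the first 5 Mb of chromosome 1, of which 30 lie below the line, and gray dots are the other 1313. More dots lie below the line (912 in all) than above it (303), and the row of dots at 0 on the y axis holds the 55 regions without KO pSer2-RPB1.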

How the data were processed

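RPB1 and pSer2-RPB1 were mapped by ChIP-seq in WT HepG2 cells and in cells without SHP-1, with 1 library per antibody and genotype, and 2 input libraries that were not analysed here on their own. Per the submitters' notes and the paper's methods, the authors used Trimmomatic to trim, BWA to align to hg38 and MACS2 to call narrow peaks per library, with the matching input as control. The versions are not given in the sources used here. In the deposited lists the signal value is a fold enrichment over input at the summit (a ratio), and significance is given as −log10 p and −log10 q. The lists carry no read counts, so depth is unknown. A deposited table of the authors' own csaw comparison of RPB1 between genotypes, with p-values and numbers of windows, was not used.

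Region length was end minus start plus 1. Cover was the percent of the bases of a region inside the union of another list. Positions were set against GENCODE release 44 canonical transcripts, promoters and TATAAA windows came from RefSeq, and GC content came from hg38. Regions were listed per library, so replicates could not be compared. No test was run. Shares have 95% Wilson intervals. Genes named were the 10 longest and 10 strongest regions, the 10 with the least and 5 with the most KO RPB1 cover, the 10 with the least and 10 with the most WT pSer2-RPB1 cover, the 10 with the largest pSer2-RPB1 difference in each direction, the 3 on each side of 3000 bp, and members of 15 gene lists. The regions and lists were chosen with earlier results of these data known. Other genes were named after their values were seen. Some items that the rule would name are not reported here. The cover and position functions were tested on simulated data. Python 3.11.15, pandas 2.3.3, NumPy 2.4.6, SciPy 1.17.1 and Matplotlib 3.10.9 were used. The alternatives were other length limits, distinct intervals, chromosomes 1 to 22 and X only, a stricter q-value, joined covering regions, other cover limits, the same rule in the KO list, and leaving out the start of chromosome 1, which was added after seeing the data.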

Additional observations from a re-analysis of the deposited data

How the results depend on the processing

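Of 54 values under alternatives, 32 stayed within 1.5 times (counts) or within the 95% interval (shares and medians), 22 moved and 0 changed sign. Counting distinct intervals and keeping chromosomes 1 to 22 and X both left all 1346 long regions in place. The values under these alternatives are among the 32 and could not move. With a length limit of 2500 or 4000 bp the regions numbered 2111 or 681, those with at least 50% KO RPB1 cover 2046 or 673, the share reaching into a gene or over its end was 47.1% or 73.0%, and median cover was 90.6% or 92.9% by KO RPB1, 72.6% or 87.6% by WT pSer2-RPB1 and 62.4% or 82.4% by KO pSer2-RPB1. At 4000 bp the median pSer2-RPB1 difference was −3.58. With covering regions at a −log10 q of at least 5 only, median cover was 90.1%, 78.6% and 69.6% in the same order. With covering regions under 500 bp apart joined, it was 97.2%, 89.1% and 82.2%, and the difference was −2.14. With the rule applied to the KO RPB1 list, WT RPB1 cover was 97.5% and the pSer2-RPB1 difference −0.057. Leaving out the first 5 Mb of chromosome 1 moved none of the 8 results beyond these limits. No paired analysis was possible because each group had 1 library. Region breaks depend on the peak caller and on depth, which is unknown, so a region listed as 2 pieces and one listed as 1 may hold similar signal, and a stretch outside a list is not shown to lack polymerase.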
